A study of Homo sapiens with 4 samples.

Results

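Keratins were examined in LN229, a cell line established from a human glioblastoma, after siRNA knockdown of *SOX2*, an HMG-box transcription factor of stem and progenitor cells. The 9 keratins were *KRT80*, which the arrays list under its old name *LOC144501*, *KRT5*, *KRT7*, *KRT8*, *KRT10*, *KRT14*, *KRT17*, *KRT18* and *KRT19*. They were found by gene symbol on the arrays and were carried by 12 of 33096 gene probes. *KRT80* was chosen by its log2 change in this same comparison (rank 4 of 18378 features, counted from the largest increase), and the other 8 genes were named as keratins with results of these data already known. The changes of the 9 keratins are therefore given as a description, with no p-value.

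The series compared *SOX2* knockdown with mock knockdown, in which a non-targeting siRNA was transfected, with 2 arrays per group. Cells of both groups grew in DMEM, and the study harvested them 72 h after transfection. Per the study's methods the 2 replicates were separate transfections of the same line, and the labels do not say which *SOX2* siRNA was used. RNA of each sample was hybridized to a 1-colour chemiluminescent array, with bulk RNA of a culture, so more transcript in each cell and more cells with the transcript cannot be told apart.

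Keratins are the intermediate filament proteins of epithelial cells. A filament needs a type I (acidic) and a type II (basic to neutral) keratin, and the pairs mark the state of an epithelium, with *KRT8* and *KRT18* in simple epithelia, *KRT5* and *KRT14* in the basal layer of stratified ones, and *KRT10* above it. Glial and mesenchymal cells build their filaments mainly from vimentin (*VIM*), and type I and type II keratin genes lie in separate gene clusters.

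Each signal is expressed as a multiple of the array's 75th percentile, and S/N is the scanner software's ratio of a signal to its error. A probe was kept for comparison when both arrays of 1 group or of both had an S/N over 3, and the level of one probe says nothing about the level of another. The *SOX2* probe gave 0.454 and 0.682 on the mock arrays against 0.204 and 0.145 on the knockdown arrays, a ratio of 0.308, with a log2 change of -1.69, a standard error (SE) of 0.28 and an adjusted p of 0.114 (limma, Benjamini-Hochberg over 18378 features). The knockdown arrays were lower than the mock arrays without overlap. No feature had an adjusted p under 0.05 (limma), a share of 0%, but 669 did with scaling to the array median, 650 with no further scaling, 639 with the authors' table and 240 with a variance trend. In the same fit that called none, 1492 features (8.12%) were higher and 1666 (9.07%) lower at an unadjusted p under 0.05. The median absolute log2 difference was 0.217 between the mock arrays and 0.161 between the knockdown arrays, but it was 0.203 between mock 1 and knockdown 2, so these arrays of different groups were closer to each other than the mock arrays were.

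One label, on treatment, speaks of sw620, a line from a colon cancer, and the others of LN229, so defining markers were examined. Of 8 glioma or mesenchymal markers, 7 had S/N over 3 on all 4 arrays, *GFAP* with only 1 of its 2 probes, while *FN1* passed on 2 arrays. Of 6 defining epithelial markers none passed on all 4 arrays, although *CLDN4*, a tight junction claudin, passed on 3 arrays with each of its 2 probes. In the longer epithelial list 6 features had a mean S/N over 3 on all 4 arrays, *CLDN4*, *OCLN*, *ELF3*, *SPINT1*, *CRB3* and *AP1M2*. The *CLDN4* feature averages a *CLDN4* probe with a brighter probe that carries no symbol. It gave 1.37 on mock 1, where its *CLDN4* probe gave 0.0722, so this feature was not read as *CLDN4*. Through the other features some epithelial transcripts were detected. *VIM* gave 50.1 and 57.5 on the mock arrays against 58.1 and 49.8 on the knockdown arrays, and *S100B*, a calcium-binding protein of glia, gave 32 and 40.3 against 28.4 and 24.7. Of 10 colon markers, 2 had S/N over 3 on all 4 arrays, *VIL1* and *HNF4A*, each with 1 of its 2 probes, and 3 had it on no array. *CDX2* (S/N of 4.38 and 3.18) and *LGALS4* (5.2 and 8.2) passed on both mock arrays only. *CDX1* passed on 2 arrays, and *GPA33* and *CEACAM5* on 1 each. The bright *HNF4A* probe gave 42.4 to 52.4 while the second *HNF4A* probe was at background on all 4 arrays. The probe of E-cadherin (*CDH1*) was flagged at background on all 4 arrays, as were those of *KRT20*, a keratin of intestinal epithelium, *CLDN7* and *GRHL2*.

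Among the 9 keratins, 6 of the 12 probes were kept, 1 each for *KRT80*, *KRT5*, *KRT7*, *KRT8* and *KRT18* and 1 that the arrays assign to both *KRT14* and *KRT16*. Of the 6 kept probes, 1 was over 2-fold higher after *SOX2* knockdown and none was over 2-fold lower, beside 1.58% and 1.02% of all 21256 kept probes. The groups did not overlap for 2 of the 6, both higher after knockdown, while over all kept probes the groups did not overlap for 21.4% in the higher and 25.6% in the lower direction. The median log2 change of the 6 was 0.13. No kept probe remained for *KRT10*, *KRT17* and *KRT19*.

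**Figure D1:**
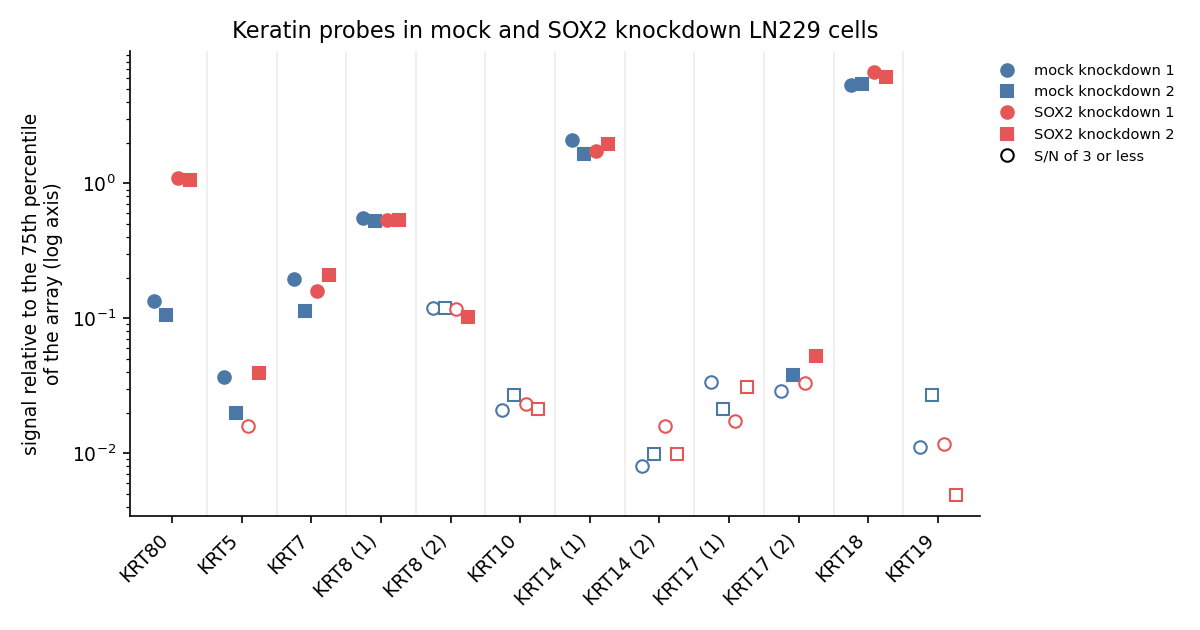
Signal of each of the 12 keratin probes on the 4 arrays, relative to the 75th percentile of the array, on a log axis. Circles and squares are replicates 1 and 2, blue is mock knockdown, red is *SOX2* knockdown, open symbols have S/N of 3 or less, and a number in brackets tells probes of 1 gene apart. *KRT80* stands at 0.135 and 0.105 in mock knockdown and at 1.1 and 1.05 after *SOX2* knockdown, while among the other kept probes the highest ratio of the means is 1.2, for *KRT7*.

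*KRT80* is a type II keratin found in many epithelia, where it lies near desmosomes and the cell border. Its probe gave 0.135 and 0.105 on the mock arrays, with S/N of 16.47 and 9.43, against 1.1 and 1.05 on the *SOX2* knockdown arrays, with S/N of 69.06 and 72.93. The transcript was thus detected in mock knockdown cells, and both knockdown arrays lay well above both mock arrays. The mean of the mock arrays was 0.12 ± 0.0213 and that of the knockdown arrays 1.07 ± 0.0294 (SD, n = 2 each), which gives a ratio of 8.97. The log2 change was 3.18 with an SE of 0.17, against a replicate difference of 1.29-fold in the mock group and 1.04-fold in the knockdown group.

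*KRT7*, a type II keratin of ductal and other simple epithelia, is the nearest keratin gene to *KRT80* in the RefSeq order. Its probe gave 0.194 and 0.113 on the mock arrays against 0.159 and 0.211 on the knockdown arrays, with S/N from 4.92 to 17.32. The groups overlapped, with mock 1 and knockdown 2 the highest. The ratio of the means was 1.2 and the log2 change 0.31 with an SE of 0.32, which is within the replicate spread. Under normexp background correction the log2 change of *KRT7* was -0.17.

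*KRT5* is the type II keratin of basal cells. It gave 0.0369 and 0.0198 on the mock arrays against 0.0159 and 0.0392 on the knockdown arrays, with S/N of 5.74, 3.38, 1.67 and 10.5 in that order. Mock 1 and knockdown 2 were again the highest, and the groups overlapped. The ratio of the means was 0.972 and the log2 change -0.11 with an SE of 0.54, and leaving out 1 array moved that change to between -0.76 and 0.54.

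*KRT8* is the type II partner of *KRT18* in simple epithelia. Its main probe (gene ID hCG43758.3) gave 0.552 and 0.522 on the mock arrays against 0.535 and 0.539 on the knockdown arrays, with S/N from 27.58 to 55.04. Both knockdown values lay between the mock values. The ratio of the means was 1.0, the log2 change 0.00 with an SE of 0.13, and the replicates differed by at most 1.06-fold. A second *KRT8* probe, under gene ID hCG1988300, gave 0.12, 0.12, 0.117 and 0.103, but only knockdown 2 had S/N over 3 and the probe was not kept. When the main probe was averaged with the other probe of its gene ID, which the arrays name *FLJ16478*, the log2 change was 0.08.

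*KRT18*, the type I keratin of simple epithelia, is unusual in that its gene lies beside *KRT8* within the type II cluster. It gave 5.36 and 5.47 on the mock arrays against 6.7 and 6.19 on the knockdown arrays, with S/N from 39.13 to 66.71. Both knockdown arrays lay above both mock arrays. The mean of the mock arrays was 5.41 ± 0.0821 and that of the knockdown arrays 6.44 ± 0.361 (SD, n = 2 each), which gives a ratio of 1.19. The log2 change was 0.25 with an SE of 0.13 and ranged from 0.19 to 0.31 over 18 other settings. *KRT8* and *KRT18* therefore both gave signals well above background in mock knockdown cells, and neither approached a 2-fold change.

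*KRT14*, the type I partner of *KRT5*, had 2 probes that differed. The probe assigned to both *KRT16* and *KRT14* gave 2.1 and 1.64 on the mock arrays against 1.73 and 1.96 on the knockdown arrays, with S/N from 35.0 to 86.95. The groups overlapped, and the log2 change was -0.01 with an SE of 0.18. The probe assigned to *KRT14* alone was flagged at background on all 4 arrays, with S/N of 0.99 or less, and gave 0.00803, 0.0099, 0.0159 and 0.0098. A probe for *KRT16* alone was kept and gave 0.445 and 0.358 on the mock arrays against 0.381 and 0.417 on the knockdown arrays. Which of these genes gave the bright shared signal cannot be told apart on these arrays.

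The remaining 3 type I keratins were at or near background. *KRT10*, the keratin of suprabasal epidermis, gave 0.0209, 0.0269, 0.0232 and 0.0212 with S/N of 0.51 or less and was flagged at background on all 4 arrays. *KRT19*, the smallest keratin, which lacks the tail domain, gave 0.0112 and 0.0269 on the mock arrays against 0.0116 and 0.0049 on the knockdown arrays, with S/N from -0.52 to 1.98. No fold is given for either, since both groups were not well above background.

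*KRT17* is a type I keratin of hair follicles and of injured skin. Its first probe gave 0.0337 and 0.0212 on the mock arrays against 0.0174 and 0.031 on the knockdown arrays, and its S/N was under 3 on every array. Its second probe gave 0.0289, 0.0382, 0.0333 and 0.0523, with S/N over 3 on mock 2 and knockdown 2 only, and was not kept. A further probe of the same gene ID carries no symbol, and the average of all 3 was kept, with 0.202 and 0.203 on the mock arrays against 0.159 and 0.187 on the knockdown arrays, a log2 change of -0.23 with an SE of 0.14. As the brighter unnamed probe is not named *KRT17*, this value was not read as a change of *KRT17*.

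The other keratins were taken whole from the family's nomenclature, as 46 symbols, of which 44 were on the arrays, with 48 probes. Of these, 24 probes (23 genes) were kept, and 17 probes had S/N over 3 on no array. The median log2 change of the kept probes was 0.14. Over all kept features, which average probes by gene ID and so are another unit, the median was 0.00. By their measured means, 2 probes were over 2-fold higher after *SOX2* knockdown and 1 was over 2-fold lower, beside 1.58% and 1.02% of all kept probes. None of the 24 had an adjusted p under 0.05 (limma, over 21256 probes). At an unadjusted p under 0.05 (limma) there were 4 of the 24, beside 17% of all kept probes. The 4 include probes of *KRT86*, *KRT81* and *KRT71*, each kept only through the group where its signal was higher. Of the 24, 5 were higher without overlap, 2 were lower and 17 overlapped, beside 21.4% higher and 25.6% lower over all kept probes.

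Both probes over 2-fold higher belong to the hair keratins *KRT86* and *KRT81*, type II keratins of the hair cortex whose genes come next after *KRT80* and *KRT7* in the RefSeq order (assembly GRCh38.p14). The *KRT86* probe, listed under the old name *KRTHB6*, gave 0.0209 and 0.0255 on the mock arrays, with S/N of 0.09 and 1.6, and 0.219 and 0.191 on the knockdown arrays, with S/N of 8.02 and 6.65. The measured means were 0.0232 and 0.205, but the probe was not well above background in mock knockdown and its fold has only a lower bound. Counted against the signal at which the probe's own error would give an S/N of 3, *SOX2* knockdown gave a signal at least 3.74-fold higher. The fitted log2 change was 3.15 with an SE of 0.17 and an adjusted p of 0.0563 (limma, Benjamini-Hochberg over 21256 probes), which did not pass 0.05. As the probe was kept only through the knockdown arrays and its mock values were at or near background, this p was not read as support. Under 10 other settings that adjusted p ranged from 8.3e-24 to 0.35, and normexp background correction gave the highest, with a log2 change of 0.92.

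*KRT81* had 2 probes of its own, listed as *KRTHB1*. The first gave 0.0546 and 0.0156 on the mock arrays against 0.217 and 0.229 on the knockdown arrays, with S/N of 6.48, 1.14, 11.96 and 27.92. Both knockdown arrays lay above both mock arrays, although the mock arrays differed from each other by 3.51-fold. Mock 2 was not well above background, so the ratio of 6.36 rests on 1 measured mock array, and the probe was kept only through the knockdown arrays. The log2 change was 2.94 with an SE of 0.62 and an adjusted p of 0.145 (limma), and without mock 2 the log2 change was 2.03. As for *KRT86*, this p was not read as support. Normexp reduced the log2 change to 0.57. The second *KRTHB1* probe gave 0.191, 0.0721, 0.191 and 0.199 and was not kept, and a probe assigned to both genes was flagged at background on all 4 arrays. *KRT81* and *KRT86* are near-identical in sequence, so which of them gave each signal is uncertain, and the average over all 4 probes of their shared gene ID changed by 1.55 on the log2 scale, with an adjusted p of 0.205 (limma).

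**Figure D2:**
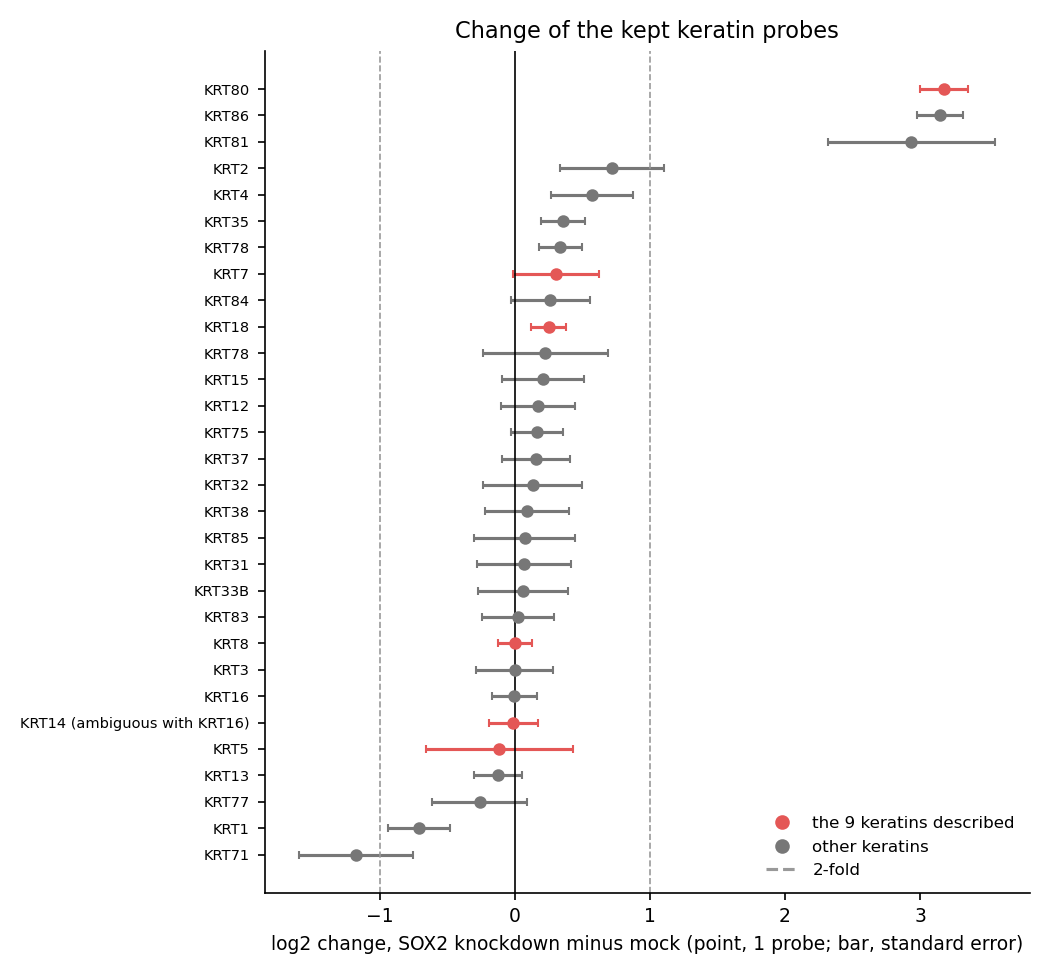
Log2 change (*SOX2* knockdown minus mock knockdown) of the 30 kept keratin probes, 1 probe per line, with the SE as a bar. Red points are the 9 keratins described, grey points are other keratins, and dashed lines mark 2-fold. *KRT80*, *KRT86* and *KRT81* lie at 3.18, 3.15 and 2.94, *KRT71* lies at -1.18, and the other points lie between the dashed lines. The *KRT86* point rests on mock signals that were not well above background, and so does the *KRT81* point for mock 2. The *KRT71* point rests on knockdown signals that were not well above background.

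Along the type II cluster the increases over 2-fold among kept probes came from *KRT80* and from the neighbours *KRT86* and *KRT81*, whose signals cannot be told apart here. *KRT7*, whose groups overlapped, lies between *KRT80* and that pair. *KRT83* and *KRT85*, the next hair keratins, gave overlapping groups with log2 changes of 0.02 and 0.07. Further on, *KRT71*, a keratin of the inner root sheath of the hair, gave 0.0626 and 0.0297 on the mock arrays against 0.0159 and 0.0229 on the knockdown arrays. The measured means were 0.0462 and 0.0194, but *KRT71* was not well above background after knockdown. By the same bound it was at least 1.55-fold lower, which is under 2-fold. As it was kept only through the mock arrays, its p-values (unadjusted p = 0.043, adjusted p = 0.275, limma) were not read as support. *KRT1*, the type II partner of *KRT10*, gave 0.053 and 0.0424 against 0.0246 and 0.0343, with a log2 change of -0.71, an unadjusted p of 0.032 and an adjusted p of 0.243 (limma).

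**Figure D3:**
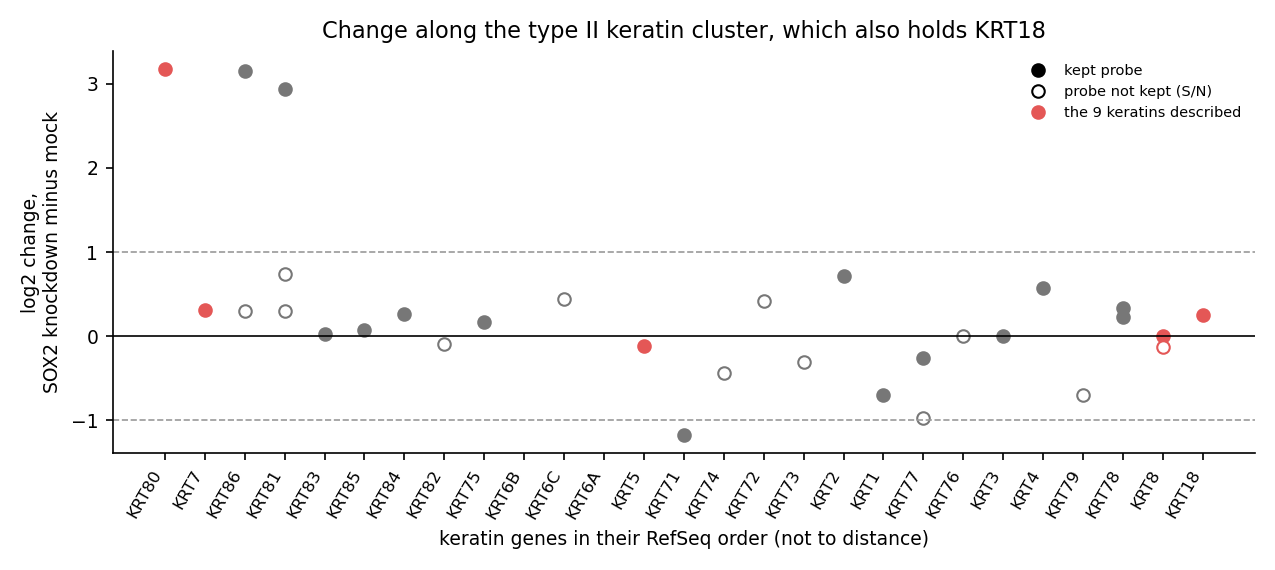
Log2 change of the keratin genes of the type II cluster, *KRT18* included, in their RefSeq order from *KRT80*, with equal steps that do not show distance. Filled points are kept probes, open points are probes not kept for low S/N, red marks the 9 keratins described, and *KRT6A* and *KRT6B* had no probe matched here. The points near 3 belong to *KRT80*, *KRT86* and *KRT81*, with *KRT7* between them at 0.31.

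Of the 5 nearest genes on the other side of *KRT80*, *NR4A1*, a nuclear receptor of the immediate early response, was over 2-fold lower. Its probes gave 5.1 and 6.53 on the mock arrays against 2.84 and 2.85 on the knockdown arrays, and 0.541 and 0.526 against 0.236 and 0.239. The knockdown arrays were lower for each probe without overlap, with log2 changes of -1.02 and -1.17 and adjusted p of 0.117 and 0.0829 (limma). None of the 5 genes after *KRT18* was over 2-fold changed, and their kept probes ranged from -0.79 for *TNS2*, a tensin of focal adhesions (adjusted p = 0.122), to 0.39 for *SOAT2*, a cholesterol esterifying enzyme (adjusted p = 0.702, both limma), on the log2 scale.

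Many kept keratin probes shared a pattern over the arrays that did not follow the groups and was not particular to keratins. In 20 of the 30 probes (66.7%) mock 1 and knockdown 2 were both above mock 2 and knockdown 1, and in 1 probe both were below. Over all 21256 kept probes the first was seen in 25.1%. Features outside the keratins showed it too. *SPRR2A* of the cornified envelope list gave 4.19 and 2.55 on the mock arrays against 2.85 and 4.02 on the knockdown arrays. The intermediate filament gene *DES* gave 0.541 and 0.297 against 0.333 and 0.51, while *VIM* showed the reverse. *KRT5*, *KRT7*, *KRT8* and the shared *KRT16* and *KRT14* probe were among the 20, as was *KRT83*, which gave 13.8 and 8.94 on the mock arrays against 10.1 and 12.6 on the knockdown arrays. The share of probes with S/N over 3 was 65.1% and 68.9% on mock 1 and knockdown 2, and 64.6% and 63.5% on mock 2 and knockdown 1. The part of this pattern in the overlap of the groups was not tested. *KRT80*, *KRT86*, *KRT81* and *KRT18* were not among the 20, with both knockdown arrays above both mock arrays.

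**Figure D4:**
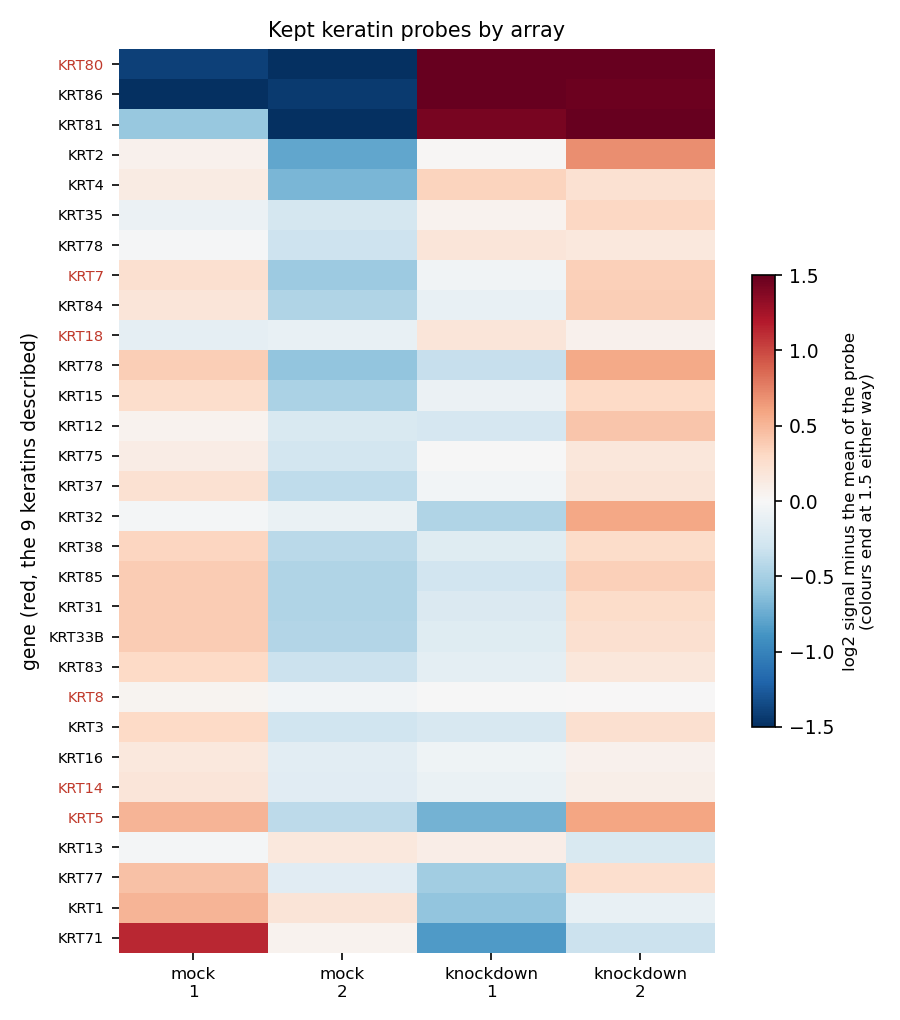
The 30 kept keratin probes (rows, the 9 keratins described in red) on the 4 arrays (columns), as log2 signal minus the mean of the probe, red above and blue below it, with colours ending at 1.5 in either direction. The top 3 rows, *KRT80*, *KRT86* and *KRT81*, are blue in both mock arrays and red in both knockdown arrays. Most rows below are red in mock 1 and knockdown 2 and blue in mock 2 and knockdown 1, a pattern found in 20 of the 30.

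The features whose centred log2 values over the 4 arrays were nearest to those of *KRT80* were *INHBE*, an inhibin subunit, at a root mean square distance of 0.0571, *CXCL3*, a chemokine, at 0.2002, *PTX3*, a pentraxin, at 0.2025, and the cytokines *IL6* at 0.266 and *IL24* at 0.2874. *INHBE* and *IL24* were not well above background in mock knockdown, so their distances rest on dim signals. *INHBE* gave 0.0417 and 0.0339 on the mock arrays against 0.376 and 0.332 on the knockdown arrays, and the S/N of *IL24* was 2.16 and 0.57 on the mock arrays. As *KRT80* was chosen by its large increase, this distance picks features with increases of similar size. The log2 changes of the 5 ran from 2.79 for *IL24* to 3.38 for *IL6*, and a shared regulation was not tested.

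Genes that work with keratins were taken from lists of their known roles. Of 15 kept genes of desmosomes and hemidesmosomes, the junctions that keratin filaments attach to, 1 was over 2-fold higher and none lower, with a median log2 change of 0.09, beside 1.47% higher and 0.909% lower over all 18378 features. It was *PPL* (periplakin), a linker of filaments to the cell border, which gave 0.0161 and 0.0113 on the mock arrays, not well above background, and 0.0362 and 0.0343 on the knockdown arrays, means of 0.0137 and 0.0352 (adjusted p = 0.104, limma). Counted by the same bound as for *KRT86* it was at least 1.44-fold higher, which is under 2-fold. *DSP* (desmoplakin), *PKP1* and *PKP2* were not kept. At an unadjusted p under 0.05 (limma), *PPL* was higher and 3 of the 15 were lower, *CD151* and the desmosomal cadherins *DSC2* and *DSG2*, beside 8.12% and 9.07% of all features. As *PPL* was kept only through the knockdown arrays, its p-values were not read as support. *DSC2* had a log2 change of -0.44 (adjusted p = 0.209) and *DSG2* of -0.39 (adjusted p = 0.255, both limma), each lower without overlap. *CD151*, a tetraspanin of hemidesmosomes, had a log2 change of -0.73 (unadjusted p = 0.00371, adjusted p = 0.121, limma), with 4.94 and 5.48 on the mock arrays against 3.19 and 3.09 on the knockdown arrays.

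Of 17 kept genes of the cornified envelope and of keratinocyte differentiation, 2 were over 2-fold higher and none lower, beside 1.47% and 0.909% of all features. The median log2 change of the 17 was 0.11, and both genes over 2-fold were kept only through the knockdown arrays. *S100A9*, a calcium-binding protein of myeloid cells and stressed epidermis, gave 0.0562 and 0.0325 on the mock arrays against 0.275 and 0.219 on the knockdown arrays, a ratio of 5.57 (log2 change 2.52, SE 0.31, adjusted p = 0.098, limma). *SPRR2F*, a small proline-rich protein of the envelope, gave 0.0305 and 0.0127 against 0.0738 and 0.0686, a ratio of 3.29 (log2 change 1.85, SE 0.44, adjusted p = 0.166, limma). For both, the knockdown arrays lay above the mock arrays, but mock 2 was not well above background (S/N of 1.38 for *S100A9* and 0.62 for *SPRR2F*, against 4.02 and 4.95 on mock 1), so these ratios rest on 1 measured mock array. The p-values of *S100A9* and *SPRR2F* were likewise not read as support. The other 15 had log2 changes within 2-fold.

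Neither the 16 kept keratin-binding and keratin-modifying genes nor the 11 kept intermediate filament genes outside the keratins held a change over 2-fold. Their median log2 changes were -0.00 and 0.09. The largest changes were 0.57 for *SFN*, a 14-3-3 protein of epithelial cells (adjusted p = 0.451), and -0.48 for *SPAG5*, a spindle protein (adjusted p = 0.268), in the first list. In the second they were -0.83 for *BFSP1*, the lens filament protein filensin (adjusted p = 0.117), and 0.63 for *NEFM*, a neurofilament subunit (adjusted p = 0.543, all limma).

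Of the epithelial list 7 of 22 features were kept, 1 of them a feature that pools *CDH1* with *RPL23A*, a ribosomal protein gene. Without it 6 were kept, with a median log2 change of 0.02. The *CLDN4* feature among them is averaged with the probe without a symbol. The *CLDN4* probe of that gene ID alone had a log2 change of -0.74 (unadjusted p = 0.0434, adjusted p = 0.277, limma). That of the other *CLDN4* probe was 0.50 (unadjusted p = 0.317, limma). Of the colon list 7 of 17 were kept, and their median of -0.05 is the value of a feature that pools *FABP1* with *PRDM10*. Neither list held a feature with a change over 2-fold. Of the glioma and mesenchymal list 15 of 19 were kept, with a median of -0.14. In that list *FABP7*, a fatty acid binding protein of radial glia, was over 2-fold lower, with a log2 change of -1.02 (adjusted p = 0.101, limma). In none of these lists did a feature pass an adjusted p of 0.05 (limma). At an unadjusted p under 0.05 (limma) there were 0 features in the epithelial list and 0 in the colon list. In the glioma list there were 1 higher and 3 lower of 15, beside 8.12% and 9.07% of all features. The 1 higher was *OLIG2*, a transcription factor of oligodendrocyte lineage cells, with 0.751 and 0.835 on the mock arrays against 1.07 and 1.06 on the knockdown arrays (log2 change 0.42, adjusted p = 0.226, limma).

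**Figure D5:**
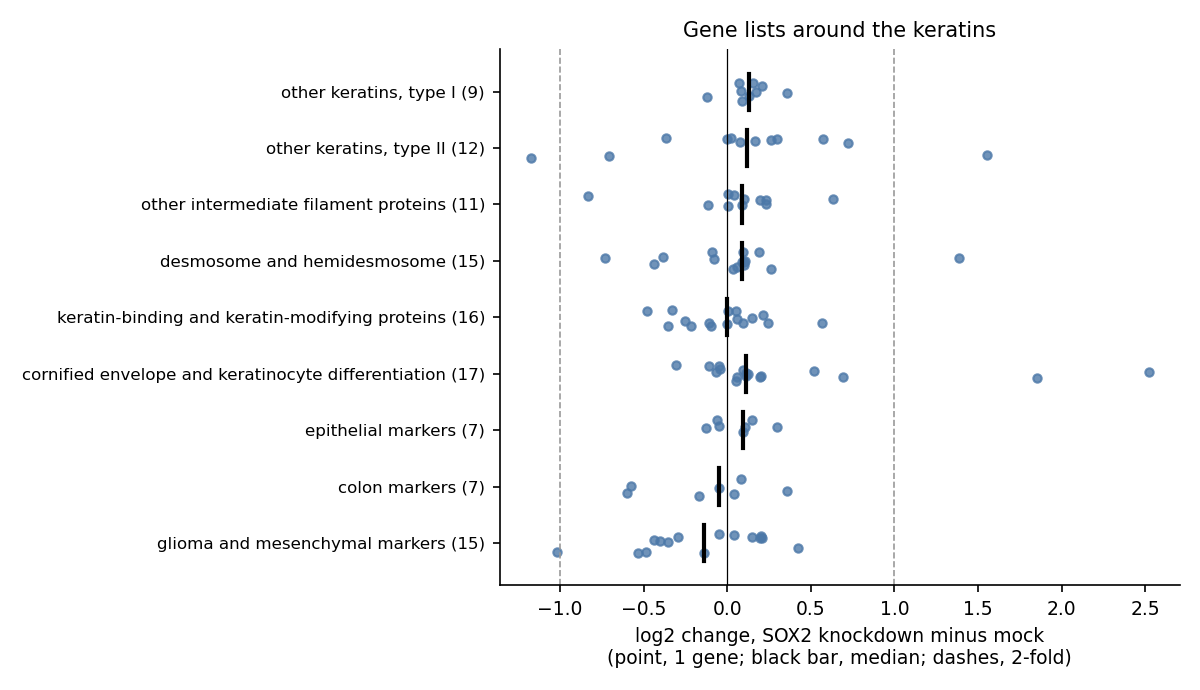
Log2 change (*SOX2* knockdown minus mock knockdown) of the kept genes of 9 lists, 1 point per gene, with the number kept in brackets, the list median as a black bar and dashed lines at 2-fold. Medians lie between -0.14 and 0.13, and the points farthest to the right are *S100A9* at 2.52 and *SPRR2F* at 1.85. *KRT81* and *KRT86* appear as 1 point at 1.55, averaged over the 4 probes of their shared gene ID.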

How the data were processed

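Total RNA of 4 LN229 samples was biotin-labelled and hybridized to Applied Biosystems Human Genome Survey arrays, 1 array per sample. Per the file headers the deposited scanner files give normalized signal intensities on a linear scale and an S/N score for each feature. The software version and the flags are not given in the sources used here. A second deposited table holds a linear ratio per probe that the authors normalized per chip and per gene, and it was used as an alternative only.

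Control features and 210 probes with a flag of 5000 or more were left out. Source names gave the groups, and sample titles the replicate numbers. Signals were scaled to the 75th percentile of the 27739 features of an array (probes averaged by gene ID, as the study's methods state), values were floored at 0.01 for fits, and log2 was taken. Features and probes were kept where both arrays of 1 group or of both had an S/N over 3 (18378 features and 21256 probes). The 9 keratins are given per probe, because gene IDs pool them with other probes. The study's 2-fold cutoff on the replicate means was set beside limma 3.58.1 (R 4.3.3, lmFit and eBayes, two-sided, no block), with Benjamini-Hochberg adjustment, tested on simulated data. Old symbols were matched through RefSeq (22302 of 24989 probes with a symbol), and no coordinates are given, since the files name no build. Array precision is limited by 2 arrays per group.

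The members and gene lists were chosen with earlier results of these data known. Named genes were the 9 keratins, *SOX2*, the kept features of each list over 2-fold or with the largest changes, the 5 nearest genes on either side of *KRT80* and *KRT18*, the 5 nearest profiles to *KRT80* and cell markers. *KRT16* was named for its shared probe. *DSG2*, *DSP*, *PKP1*, *PKP2*, *SPRR2A*, *DES* and the epithelial genes with high S/N were named after their values were seen. A gene of the glioma list is not reported here. The alternatives were other scalings, floors, filters and fold cutoffs, the authors' table, normexp with offset 50, single probes, a variance trend, the replicate block and each array left out. A crossed pairing of the replicate numbers and the settings for the single *KRT86* and *KRT81* probes were added after seeing the data.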

Additional observations from a re-analysis of the deposited data

How the results depend on the processing

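Among the kept features of the 9 keratins (7, and 6 to 9 under other filters), *KRT80* was the only one over 2-fold in the 18 alternatives, with a log2 change from 2.62 (normexp) to 3.36 (without mock 1). Except with single probes, these are averages by gene ID. They include the *KRT17* average with the unnamed probe, which was not read as *KRT17*, and the pooled *KRT8* and *KRT14* averages. Among the other keratins, 2 of 22 features passed 2-fold, against 1 with a floor of 0.05, 0 with an S/N over 3 required on all 4 arrays, 0 with normexp, 4 at a cutoff of 1.5-fold and 0 at 3-fold, and leaving out each array in turn gave 1 to 2 (1 without mock 2). Over all features 438 passed 2-fold, against 288 with a floor of 0.05, 1055 with no S/N filter, 245 with an S/N over 3 required on all 4 arrays, 187 with normexp, 1812 at 1.5-fold and 94 at 3-fold, and 542 to 742 with an array left out (742 without mock 1). No feature had an adjusted p under 0.05 (limma), but 669 did with scaling to the array median, 650 with no further scaling and 639 with the authors' table, where limma's prior degrees of freedom were infinite instead of 2.41. A variance trend gave 240 and an S/N over 3 required on all 4 arrays gave 3, and leaving out an array gave 0 each time. The adjusted p (limma) of *KRT86* and *KRT81* passed 0.05 under the median scaling (1.94e-23 and 2.92e-20) and with the authors' table (8.3e-24 and 1.54e-20), *KRT86* also with a variance trend (0.0236). The prior degrees of freedom were infinite under the median scaling and with the authors' table. As both probes were kept only through the knockdown arrays, none of these p-values was read as support. *KRT80*, *KRT86* and *KRT81* were higher after *SOX2* knockdown in every alternative run. Every run used the same arrays, *KRT80* was chosen by its increase, and *KRT86* and *KRT81* were kept only through the knockdown arrays. The shared direction was therefore not read as support.

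Same-numbered arrays deviated in opposite ways (r = -0.4989 across 18378 features, which are not independent replicates), so the numbers were not taken to pair the samples. With the replicate number as a block, 0 features had an adjusted p under 0.05, and 0 with the crossed pairing as a block. The block left the log2 change of *KRT80* at 3.18 and gave *KRT86* an adjusted p of 0.104 and *KRT81* one of 0.236. *KRT19*, which was not kept, reached -1.32 on the log2 scale without mock 1 and -1.21 with a floor of 0.001, from signals at background. Dim probes (*KRT10*, *KRT19*, *KRT17* and the *KRT14* probe) carry no measured change, and changes below the replicate spread could not be resolved with 2 arrays per group.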
